A study of Mus musculus with 2 samples.

Results

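The 37 genes described here encode the signalling chain of the bone morphogenetic proteins (BMPs) and of transforming growth factor beta (TGF-beta) with the related activins. They were chosen by name from the pathway: 10 ligand genes, 9 receptor genes, 8 Smad genes, the 4 Id genes, and 6 genes of antagonists and a latency protein. Of the 37, 36 were among the 21673 genes in the deposited table, and Bmp5 was not listed. The lenses were taken from C57BL/6 mice on postnatal day 60, and their mRNA was sequenced as 1 library for each genotype. The CKO library came from mice homozygous for a floxed allele of Msx2 that also carried 1 copy of the Le-Cre transgene. The WT library came from mice that had these floxed alleles but lacked Cre, so the Cre transgene and the loss of Msx2 differ together between the libraries. Le-Cre uses Pax6 regulatory sequence to drive Cre in the surface ectoderm that forms the lens, cornea and conjunctiva. The sources used here do not say whether a library held the lenses of 1 mouse or of several.

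In this pathway a ligand dimer brings together type I and type II receptor kinases, which phosphorylate receptor Smads; these join Smad4, enter the nucleus and regulate targets. BMPs act mainly through Smad1, Smad5 and Smad9, and TGF-beta and activins through Smad2 and Smad3, while Smad6 and Smad7 inhibit the chain. BMP signals are needed to form the lens and help its fibre cells to differentiate, TGF-beta can drive lens epithelial cells toward a mesenchymal state, and Msx2 is a homeobox gene that BMP induces in many tissues.

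Levels are given as FPKM, a read density per kilobase of gene length that is adjusted for library size, and reads are whole reads recovered from those values. Genes with an average of at least 1 FPKM across CKO and WT are called measured. A measured gene passed the size rule if its FPKM + 1 differed at least 2-fold between the libraries. Ratios are FPKM in CKO over FPKM in WT, each with an exact 95% interval for read counting only. Because each genotype has 1 library, no ratio has a replicate check or a p-value, and each describes only these 2 libraries.

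The libraries held 17165504 reads in CKO and 20784737 in WT. Msx2 was at 0.0392 FPKM (3 reads) in CKO and 6.21 (311 reads) in WT. Reads of the 16 crystallin genes were 40.1% of the CKO library and 61.6% of the WT library, and all 9 listed lens fibre markers had lower FPKM in CKO, Lim2 not being listed. Of 10 lens epithelium markers 3 were lower past 2-fold (summed 346 FPKM in CKO and 756 in WT). The libraries also differed in markers of other cells. All 10 photoreceptor markers were higher past 2-fold, with summed levels of 750 FPKM in CKO and 18.5 in WT. Of 10 inner retina and Müller glia markers 7 were higher past 2-fold (summed 173 and 67.1 FPKM), and of 10 leukocyte markers 6 were (39.4 and 6.73 FPKM). Of 8 cornea and conjunctiva markers only Aldh3a1 and Lypd2 were measured and both were higher (summed 335 and 12.1 FPKM), while the cornea keratin Krt12 was not listed and Krt14 had 0 reads in CKO. Of 8 endothelium and pericyte markers 1 was higher (16.0 and 16.2 FPKM), and 2 of 8 pigment cell, iris and ciliary markers were lower (11.6 and 28.2 FPKM). In such bulk samples fewer cells of a type and less RNA per cell cannot be told apart. The sex-linked transcripts differed as well: Xist had 16251 reads in CKO and 35 in WT, and Eif2s3y, on chromosome Y, had 0 and 819. By these transcripts the CKO library reads as female and the WT library as mostly male. Sex and genotype therefore cannot be told apart between these libraries.

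Upstream sequences are shown for Smad1 and Smad5 and for Inhba and Inhbb, relatives whose balance differed between the libraries, and for Id4 and Id2, the Id genes whose ratios lay farthest above 1 and closest to 1. They are RefSeq sequences on GRCm38.p6, 5′ to 3′ on the gene's strand, taken from the 250 bases before the annotated start and ended where an annotated exon begins. In the GENCODE annotation Id2 spans 25093799 to 25097140 on chromosome 12. The Id2 stretch thus lies inside the gene there, and is upstream only of the start used here. Capitals mark GGCGCC, a GC-rich core that BMP Smads can bind, or TAATTG and its reverse complement CAATTA, the core of sites that Msx homeodomains can bind. The stretches lie at chr8:79399519-79399678 for Smad1 (minus strand), at chr13:56702760-56703009 for Smad5 (plus), at chr13:16011601-16011850 for Inhba (plus), at chr1:119422249-119422498 for Inhbb (minus), at chr12:25096254-25096342 for Id2 (minus) and at chr13:48260866-48261115 for Id4 (plus).
Smad1: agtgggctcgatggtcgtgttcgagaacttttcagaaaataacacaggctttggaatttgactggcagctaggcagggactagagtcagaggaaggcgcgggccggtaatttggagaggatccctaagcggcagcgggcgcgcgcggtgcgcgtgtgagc
Smad5: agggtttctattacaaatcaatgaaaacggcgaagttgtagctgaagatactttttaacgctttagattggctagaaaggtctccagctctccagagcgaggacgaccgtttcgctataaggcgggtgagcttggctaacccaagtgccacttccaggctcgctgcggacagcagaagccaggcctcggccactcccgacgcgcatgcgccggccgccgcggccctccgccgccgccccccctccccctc
Inhba: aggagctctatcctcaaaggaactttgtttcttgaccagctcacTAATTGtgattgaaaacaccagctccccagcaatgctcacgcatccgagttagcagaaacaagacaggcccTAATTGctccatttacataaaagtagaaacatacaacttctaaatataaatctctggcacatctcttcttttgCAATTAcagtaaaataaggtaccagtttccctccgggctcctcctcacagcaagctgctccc
Inhbb: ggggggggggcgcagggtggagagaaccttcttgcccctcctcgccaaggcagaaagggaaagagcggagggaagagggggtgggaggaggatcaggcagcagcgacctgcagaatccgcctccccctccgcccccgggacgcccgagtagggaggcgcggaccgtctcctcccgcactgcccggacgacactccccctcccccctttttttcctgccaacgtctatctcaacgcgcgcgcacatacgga
Id2: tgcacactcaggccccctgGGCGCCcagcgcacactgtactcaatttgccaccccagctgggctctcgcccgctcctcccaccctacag
Id4: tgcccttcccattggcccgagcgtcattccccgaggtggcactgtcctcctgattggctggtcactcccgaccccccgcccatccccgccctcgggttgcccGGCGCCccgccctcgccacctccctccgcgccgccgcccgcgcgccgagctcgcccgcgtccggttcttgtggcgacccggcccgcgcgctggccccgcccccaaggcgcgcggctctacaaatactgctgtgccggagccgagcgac

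Over the full 250 bases, GGCGCC was found upstream of 8 of the 26 members with an entry (30.8%) and in 9.59% of all 32851 upstream windows. These 8 were Bmpr1a, Bmpr2, Chrd, Grem1, Id2, Id4, Smad9 and Tgfbr1. The starts used for Bmpr1a, Bmpr2 and Id4 lie 795, 879 and 311 bases from the start of the deposited gene, against at most 2 for the others. Each member gave 1 window, while the background took all windows of 27025 genes. Base composition was not matched, so the shares for either motif are not like for like. TAATTG or CAATTA was found upstream of 3 of the 26 (11.5%), namely Inhba, Bmpr1b and Ltbp1, and in 7.17% of all windows. Inhba held 3 such matches, as 15 of all windows (0.0457%) did with 3 or more. The annotated start used for Bmpr1b lies 187161 bases from the start of the deposited gene, against 39 for Ltbp1 and 0 for Inhba. A match here is a stretch of letters and not a measured binding site.

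Most of the pathway lay within 2-fold between the libraries. Of the 27 measured members 1 passed the size rule, Smad1, which was lower in CKO, and none was higher. Over all 10757 measured genes 2.93% passed as lower and 5.83% as higher, so the members' share was near that background. Under a 1.5-fold rule 4 members passed as lower and none as higher, beside 8.09% and 10.1% of all measured genes. The median log2 ratio of FPKM + 1 was -0.19 for the members and -0.02 for all measured genes. The members' ratios ran from -1.13 for Smad1 to 0.42 for Id4, with 20 below 0 and 7 above. The counting interval lay wholly below 1 for 15 members and wholly above for 3, against 29.6% and 25.9% of all measured genes.

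These directions depend on how the libraries are scaled. Scaling to library totals alone multiplies each ratio by 1.85, which moved the median of all measured genes up by 0.70 on the log2 scale. Under it 2 members passed as higher (Id4 and Inhbb) and none as lower, beside 20.3% and 0.664% of all genes so tested. Under it 25 of the 27 members were above 0, the median was 0.51 for the members and 0.68 for all measured genes, and Smad1 had a ratio of 0.720, inside the size rule. Under totals without the crystallins the medians were 0.02 and 0.18, and no member passed. Comparisons between members of the same library, which no scaling changes, are therefore given beside the ratios.

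**Figure D1:**
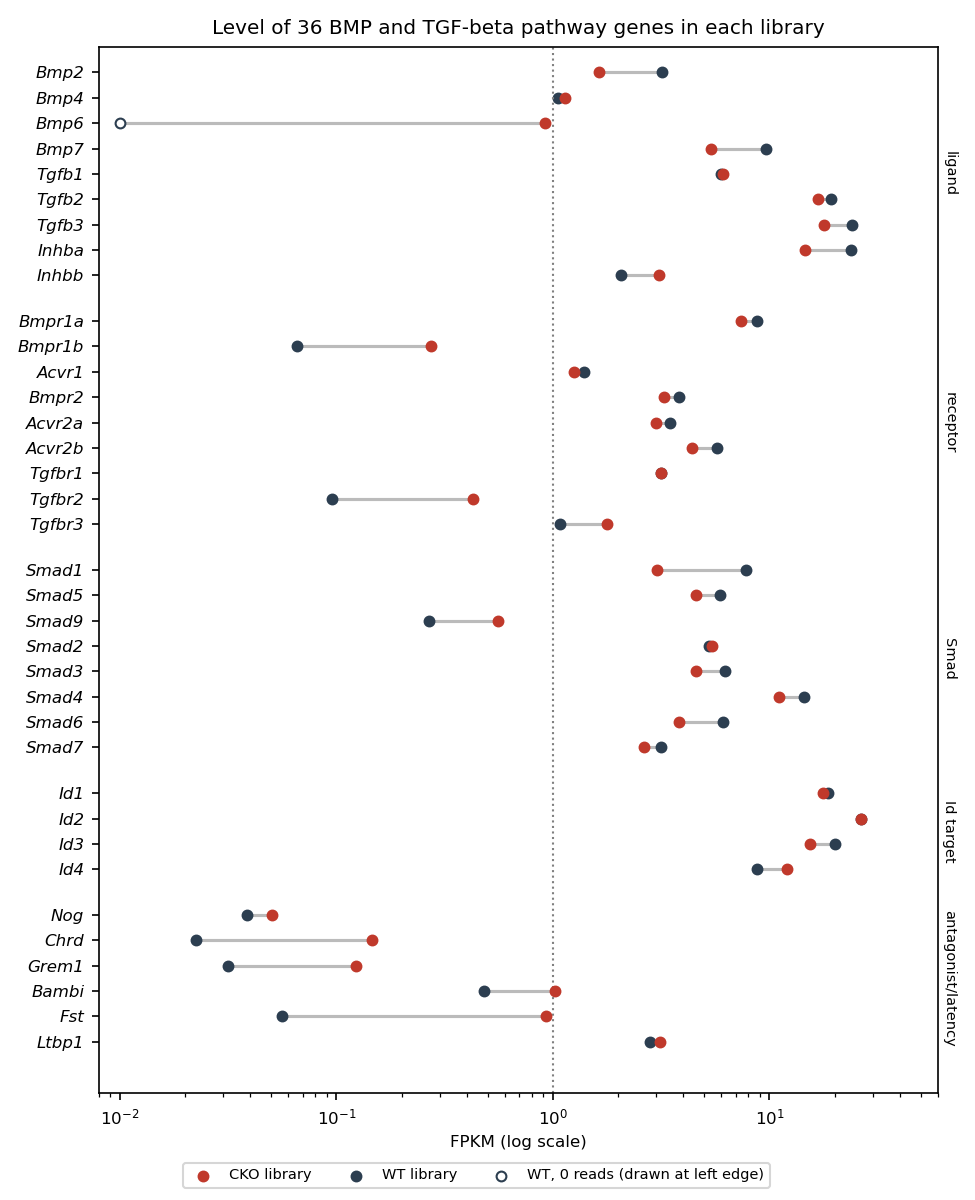
Level of each of the 36 listed genes in FPKM (log scale), ordered by role, with 1 point for the CKO library and 1 for the WT library and a dotted line at 1 FPKM. The Id genes and Tgfb2, Tgfb3 and Inhba lie farthest right, and all 9 genes under a mean of 1 FPKM have their CKO point to the right of their WT point.

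Among the ligand genes, Tgfb3, Tgfb2 and Inhba had the highest FPKM in both libraries. Tgfb3 had 17.8 FPKM in the CKO library and 24.1 in WT, and Tgfb2, the form found in the fluid around the lens, was at 16.8 and 19.2. Tgfb1 was at 6.10 and 5.96 FPKM, with a ratio of 1.02 (0.909 to 1.15). In WT Tgfb3 stood above Tgfb2 at a ratio of 1.25 (1.17 to 1.35), and in CKO at 1.06 (0.990 to 1.13), so their order was not separated by counting in CKO. This order holds per gene length only. By reads Tgfb2 stood above Tgfb3 in both libraries, with 2273 and 1407 reads in CKO and 1701 and 1247 in WT. The 3 TGF-beta genes summed to 40.7 FPKM in CKO and 49.3 in WT. Ltbp1, whose protein holds TGF-beta latent in the matrix, was at 3.12 FPKM (763 reads) in CKO and 2.80 (448 reads) in WT.

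Bmp7, which is needed for the lens to form, was the most abundant BMP ligand gene in both libraries, and was at 5.34 FPKM (502 reads) in CKO and 9.60 (589 reads) in WT. Its ratio of 0.557 (0.493 to 0.628) missed the size rule, and became 1.03 under library totals. Bmp2 was at 1.64 FPKM (136 reads) and 3.21 (174 reads), a ratio of 0.511 (0.405 to 0.643) that also missed it, and was 0.946 under library totals. Bmp4, a ligand of lens induction, was at 1.14 FPKM (59 reads) and 1.06 (36 reads), with a ratio of 1.07 (0.696 to 1.67). Within a library Bmp7 stood 4.71-fold above Bmp4 in CKO (3.59 to 6.28) and 9.05-fold above it in WT (6.46 to 13.1). The ratio of Bmp2 to Bmp7 was 0.306 (0.252 to 0.371) in CKO and 0.334 (0.280 to 0.396) in WT, and these intervals overlap. Bmp6 had 52 reads in CKO (0.923 FPKM) and 0 in WT, where 3 reads would be 0.0815 FPKM. That is at least 11.3-fold higher against a floor of 3 reads in the WT library, with a lower limit of the counting interval of 8.89. Bmp6 made up 10.2% of the summed FPKM of the 4 listed BMP ligand genes in CKO. An exon of Txndc5 on the opposite strand overlaps Bmp6 in the GENCODE annotation, and Txndc5 had 9.57 FPKM in the CKO library and 11.3 in WT. In the deposited coordinates these genes do not overlap, as Bmp6 ends at 38499728 and Txndc5 starts at 38500273 on chromosome 13.

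Genes of the activin and inhibin beta subunits differed in balance between the libraries. Inhba, which encodes the subunit of activin A, was at 14.6 FPKM (677 reads) in CKO and 23.7 (717 reads) in WT, a ratio of 0.617 (0.555 to 0.686). Inhbb, which encodes the subunit of activin B, was at 3.09 FPKM (307 reads) and 2.06 (134 reads), a ratio of 1.497 (1.22 to 1.85). The ratios lay on opposite sides of 1 under the deposited scaling, but neither passed the size rule, and under library totals both were above 1, at 1.14 and 2.77. Inhba stood 4.74-fold above Inhbb in CKO (4.13 to 5.44) and 11.5-fold above it in WT (9.55 to 13.9), so the balance differed 2.43-fold (1.92 to 3.07) whatever the scaling. Fst encodes follistatin, which binds and blocks activin, and had 51 reads in CKO (0.934 FPKM) and 2 in WT (0.0561 FPKM). The ratio was 16.7 (4.38 to 141). Set against Inhba in the same library, Fst was 27.01-fold higher in CKO than in WT (7.04 to 230).

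Of 7 measured receptor genes none passed the size rule, and their log2 ratios ran from -0.33 for Acvr2b to 0.42 for Tgfbr3. Bmpr1a, the main BMP type I receptor gene here, had 7.38 FPKM in the CKO library and 8.80 in WT. Acvr1, which encodes the type I receptor ALK2, was at 1.25 and 1.40 FPKM, so Bmpr1a stood 5.91-fold above it in CKO (4.96 to 7.09) and 6.30-fold in WT (5.13 to 7.80). The type II receptor genes kept like proportions. Acvr2b was at 4.37 and 5.75 FPKM, Bmpr2 at 3.27 and 3.82, and Acvr2a at 2.995 and 3.49. Acvr2b thus held 41.1% of their summed FPKM in CKO and 44.0% in WT, but 9.17% and 10.2% of their summed reads.

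For TGF-beta itself, the type I receptor gene Tgfbr1 had 3.14 FPKM in the CKO library and 3.16 in WT, a ratio of 0.996 (0.862 to 1.15). Tgfbr2, the type II receptor gene without which TGF-beta cannot signal, had 48 reads in CKO (0.429 FPKM) and 7 in WT (0.0958 FPKM). Its ratio was 4.48 (2.02 to 11.7). Set against Tgfbr1 in the same library, Tgfbr2 was 4.50-fold higher in CKO than in WT (1.99 to 11.9). Tgfbr3, the coreceptor betaglycan, was at 1.78 FPKM (272 reads) and 1.08 (108 reads), a ratio of 1.65 (1.31 to 2.08). Bmpr1b, the other BMP type I receptor gene, had 38 reads in CKO and 6 in WT.

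**Figure D2:**
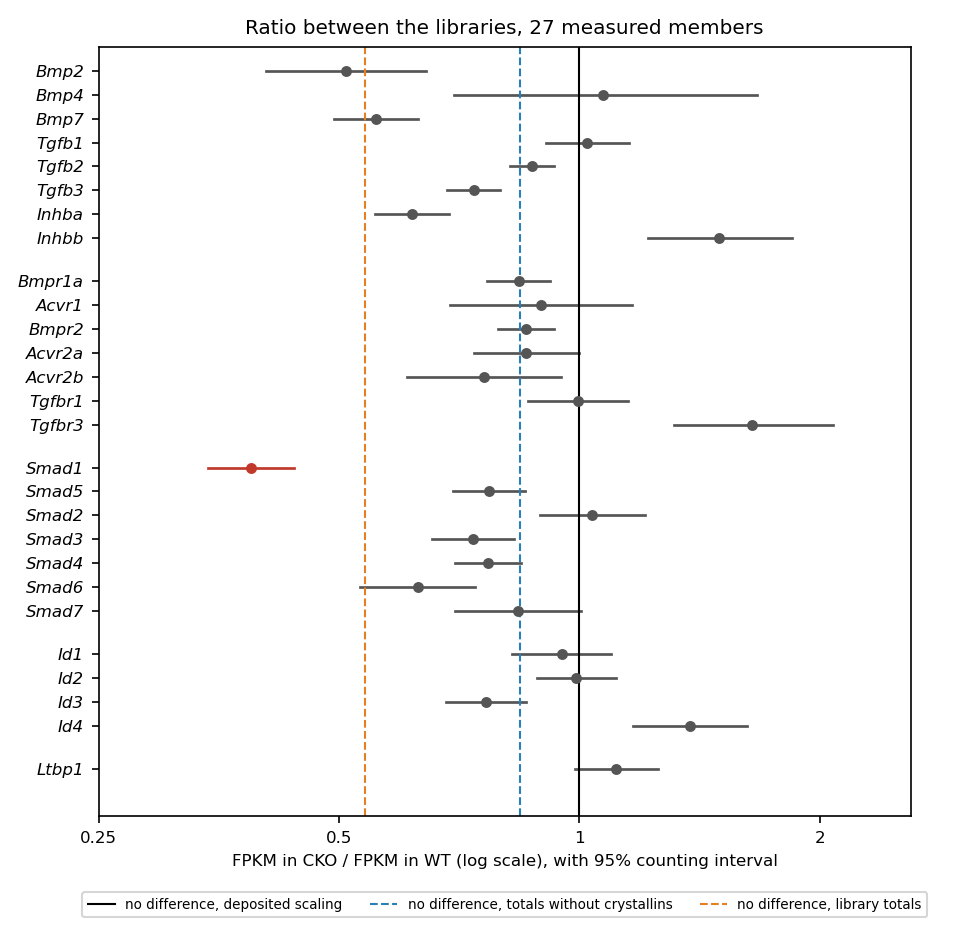
Ratio of FPKM in CKO to FPKM in WT (log scale) for the 27 measured members, with lines for the 95% counting interval and vertical lines where no difference would lie under 3 scalings of the libraries. Smad1 (red) is the member past the 2-fold rule, and its interval of 0.343 to 0.439 is the only one that lies wholly left of the library totals line at 0.540.

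Of the 7 measured Smad genes Smad1, which carries BMP signals, was the one past the size rule. Smad1 (ENSMUSG00000031681, chr8:79338395-79399518 on the minus strand, GRCm38) was at 3.04 FPKM (413 reads) in CKO and 7.83 (695 reads) in WT. It was 2.58-fold lower in CKO (2.28 to 2.92), and 240 of the measured genes (2.23%) had a lower ratio. Smad5, its close relative in the same branch, was at 4.57 FPKM (792 reads) and 5.93 (672 reads), a ratio of 0.770 (0.694 to 0.855). Smad1 stood above Smad5 in WT at a ratio of 1.32 (1.19 to 1.47) and below it in CKO at 0.666 (0.589 to 0.751). The order of these genes was thus opposite in the libraries, and their balance differed 1.98-fold (1.69 to 2.33) whatever the scaling. Smad9, the third of the branch, was the lowest, with 70 reads in CKO (0.558 FPKM) and 22 in WT (0.268 FPKM). Smad1 made up 37.2% of the summed FPKM of these genes in CKO and 55.8% in WT, and the sums were 8.17 and 14.0 FPKM. No capitalised motif lies in the upstream stretches of Smad1 and Smad5 shown above.

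In the TGF-beta branch, Smad2 had 5.44 FPKM in the CKO library and 5.24 in WT, a ratio of 1.04 (0.892 to 1.21), and Smad3 was at 4.59 and 6.24, a ratio of 0.736 (0.654 to 0.829). Smad3 stood above Smad2 in WT at 1.19 (1.03 to 1.38) and below it in CKO at 0.845 (0.746 to 0.957). The balance differed 1.41-fold (1.16 to 1.71). The opposite order holds per gene length only, since by reads Smad3 stood above Smad2 in both libraries, with 595 and 451 reads in CKO and 528 and 284 in WT. Smad4, the shared partner, had 11.1 FPKM in the CKO library and 14.5 in WT. The inhibitory Smad6, itself a target of BMP signalling, was at 3.83 and 6.11 FPKM, a ratio of 0.627 (0.531 to 0.740), and Smad7 was at 2.63 and 3.14. Smad3 and Smad6 are neighbours on chromosome 9, 195 kb apart with no other listed gene between them, and both had ratios below 1, which became 1.36 and 1.16 under library totals.

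The Id genes encode inhibitors of basic helix-loop-helix transcription factors and are direct targets of BMP Smads in many cells. Their summed level was 71.5 FPKM in CKO and 74.1 in WT. Id2 was at 26.4 FPKM (783 reads) and 26.6 (516 reads), with a ratio of 0.991 (0.886 to 1.11). Id1, the target most used as a readout of BMP signalling, was at 17.7 FPKM (480 reads) and 18.6 (330 reads), with a ratio of 0.9503 (0.824 to 1.097). Neither was separated from 1 by counting under the deposited scaling, and under library totals the ratios were 1.84 and 1.76. Id3 was at 15.4 FPKM (643 reads) and 20.1 (550 reads), a ratio of 0.764 (0.681 to 0.857). Id4 was at 12.0 FPKM (467 reads) and 8.76 (222 reads), a ratio of 1.37 (1.17 to 1.62). None of the 4 passed the size rule. The ratio of Id4 to Id3 was 0.784 in CKO (0.694 to 0.884) and 0.435 in WT (0.371 to 0.510), a 1.80-fold difference (1.47 to 2.20) that no scaling changes. The ratio of Id1 to Id2 was 0.671 (0.598 to 0.753) and 0.7002 (0.608 to 0.805), with overlapping intervals. Both Id2 and Id4 carry 1 GGCGCC in the stretches shown above, of which that of Id2 lies inside the gene in the GENCODE annotation.

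**Figure D3:**
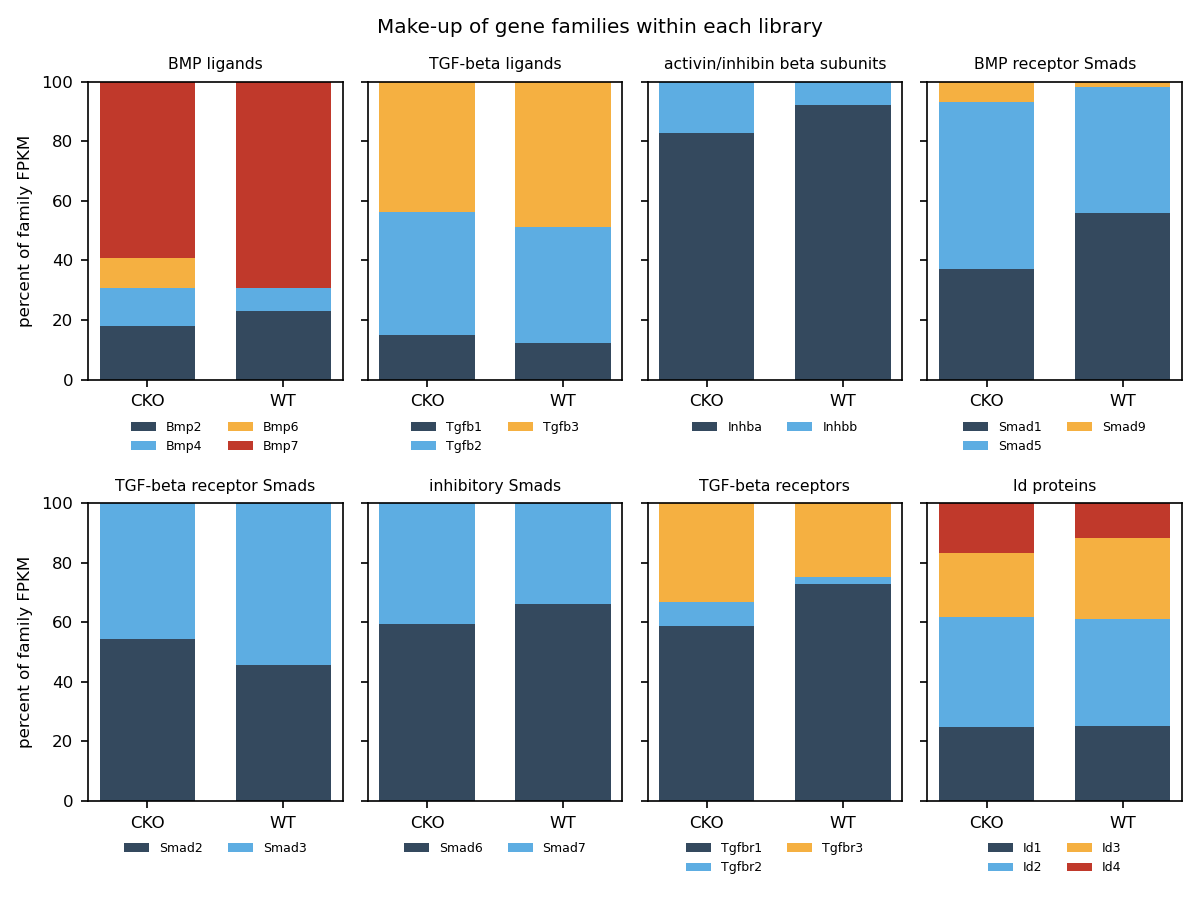
Percent of the summed FPKM of each of 8 gene families that each gene contributed, in the CKO and WT libraries (stacked bars). Smad1 gives 37.2% of its family in CKO and 55.8% in WT, Inhba 82.6% and 92.0%, and Id4 16.8% and 11.8%.

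In all, 13 pairs of members were compared within libraries, chosen with the values known, and the counting interval of the difference in balance excluded 1 in 10 of them. The 3 pairs whose interval included 1 were Bmp2 and Bmp7, Bmpr1a and Acvr1, and Id1 and Id2. The share among other gene pairs was not computed, so this count is not a result about the pathway.

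The 9 listed members under a mean of 1 FPKM were Bmp6, Bmpr1b, Tgfbr2, Smad9, Nog, Chrd, Grem1, Bambi and Fst. All 9 had the higher FPKM in CKO, as did 59.6% of the 10916 listed genes under that mean. Together they had 413 reads in CKO and 79 in WT. The counting interval lay wholly above 1 in 7 of the 9, against 17.6% of those genes, and in 7 of the 8 with 10 reads or more, against 32.2% of the genes with as many reads. Chrd, which encodes the BMP antagonist chordin, had 20 reads in CKO and 2 in WT, a ratio of 6.53 (1.59 to 57.6). Bambi, which encodes a pseudoreceptor that dampens TGF-beta signals, had 120 and 37 reads, a ratio of 2.12 (1.45 to 3.15). Smad9 had a ratio of 2.08 (1.27 to 3.53), and Bmpr1b of 4.14 (1.74 to 12.0). Grem1, the gene of the BMP antagonist gremlin, had 12 and 2 reads, and Nog, the gene of noggin, had 2 and 1, so neither was separated from 1 at this depth. With a pseudocount of 0.1 in place of 1 and a minimum of 10 reads in place of the FPKM minimum, 5 members passed 2-fold as higher, namely Bmp6, Bmpr1b, Chrd, Fst and Tgfbr2, while 14.0% of all genes so tested did, and Smad1 passed as lower, as 4.53% did. Photoreceptor, inner retina and leukocyte markers summed higher in the same library, as given above, and of the 4 listed cornea and conjunctiva markers 2 were higher while Krt14 was at 0 reads there. Their part in these low levels was not tested.

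Other genes of the pathway lay mostly within 2-fold as well. The list held 69 genes, of which 65 were listed and 42 measured. Of the 42, 2 were higher past the size rule and 2 lower, beside 5.83% and 2.93% of all measured genes. The other 38 lay within it, and the median log2 ratio of the 42 was -0.04. Of the higher genes, Tgfbi is induced by TGF-beta in many cells and encodes a secreted matrix protein abundant in cornea. Tgfbi was at 7.96 FPKM (498 reads) in CKO and 0.734 (30 reads) in WT, a ratio of 10.8 (7.501 to 16.2). In the same library all 10 leukocyte markers had the higher FPKM, as did 2 of the 4 listed cornea and conjunctiva markers (Aldh3a1 and Lypd2), while Krt14 was at 0 reads there and Krt12 was not listed. Their part in this was not tested.

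Other genes that TGF-beta induces did not pass. Ctgf, which encodes a matrix-associated growth regulator, was at 11.2 and 8.84 FPKM, and Pmepa1, a feedback inhibitor, at 6.19 and 5.35. Skil was at 3.32 and 3.97 FPKM. The lower genes were Msx2 itself and Fstl1, which encodes a secreted glycoprotein that can bind BMPs. Fstl1 was at 33.7 FPKM (3873 reads) in CKO and 69.9 (5245 reads) in WT, 2.07-fold lower (1.99 to 2.16), and its ratio was 0.894 under library totals. Msx1, the close relative of Msx2 and also a BMP target, was at 4.17 and 3.32 FPKM, and Hey1, a transcriptional repressor that BMP can induce, at 4.97 and 6.40. Neither passed.

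Of the 23 other pathway genes listed under a mean of 1 FPKM, 15 had the higher FPKM in CKO and 8 the lower. Of all 10916 listed genes under that mean, 59.6% had the higher FPKM in CKO. The interval lay wholly above 1 for 7 of the 23, against 17.6% of all listed genes under that mean. It lay wholly below for 1, Sost, which encodes the secreted antagonist sclerostin and had 4 reads in CKO and 24 in WT. Bmp3, a ligand gene, had 48 and 0 reads, at least 10.5-fold higher against a floor of 3 reads in the WT library. Eng, which encodes the endothelial coreceptor endoglin, had 44 and 6 reads. The genes of this paragraph were named after their values were seen.

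**Figure D4:**
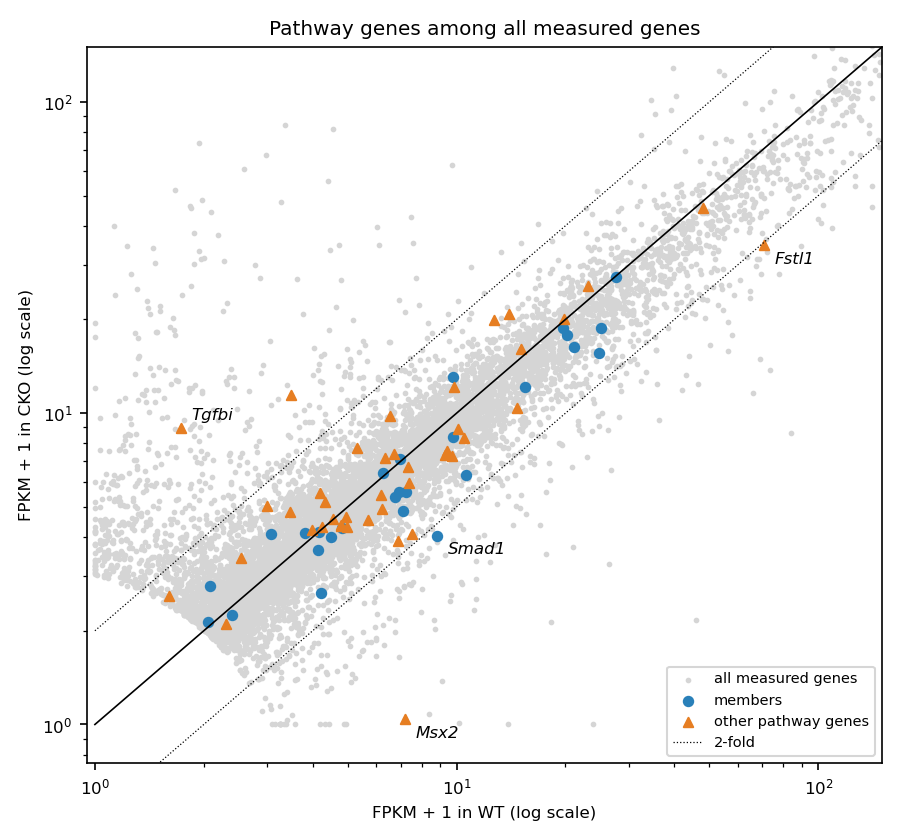
FPKM + 1 in CKO against FPKM + 1 in WT (log scales) for measured genes within the axes (grey; the most abundant lie beyond them), the 27 measured members (circles) and the 42 other measured pathway genes (triangles), with dotted lines at 2-fold. Smad1, Fstl1 and Msx2 lie on or below the lower line, and Tgfbi lies above the upper one.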

How the data were processed

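Lens mRNA of 1 CKO and 1 WT library was analysed from a single table. Per the submitters' processing notes, STAR 2.5.1b, HTSeq 0.6.0 and DESeq2 1.10.1 were used, with no roles given. The sources used here do not give genome build, annotation or strandedness. The deposited values are FPKM, inferred from the values themselves: multiplied by gene length they are whole multiples of 1 step per library (100% of values within 0.001 of a read), and that step was taken as 1 read. Whether it is a read or a read pair is unsettled. The deposited scaling corresponds to effective libraries of 1.36 (CKO) and 0.735 (WT) times the recovered reads. Other scalings were rebuilt from those reads with the same geometric mean.

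Identifiers were matched to GENCODE M21 (GRCm38), where all 36 listed members lay on the same chromosome and 26 had the identical start and end. Exons of other genes on the opposite strand overlap 9 of the 36. On the same strand they overlap 2, Smad5 (by Gm27301) and Tgfbr3 (by Gm43422).

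Log2 ratios used a pseudocount of 1 FPKM and genes with a mean of 1 FPKM or more. Ratio intervals are exact conditional binomial, and pair balances conditional odds ratios, at 95%, covering counting error only. A gene with 0 reads was set against 3 reads. With 1 library per group no test was planned or run. Named were all members, Msx2 and each other pathway gene past the size rule; further genes were chosen after their values were seen, and some genes are not reported here. The members and lists were chosen with earlier results of these data known. The calculation was tested on simulated data. Python 3.11.15 with scipy 1.17.1 was used.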

Additional observations from a re-analysis of the deposited data

How the results depend on the processing

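The count of members past the size rule, 0 higher and 1 lower, was the same with median-of-ratios scaling, a pseudocount of 0.1, no filter and a minimum of 10 reads. Library totals gave 2 higher (Id4 and Inhbb) and 0 lower with a median log2 ratio of 0.51, and totals without crystallins gave 0 higher and 0 lower with a median of 0.0192; the cause is the scaling itself, which multiplies all ratios by 1.85 and 1.19. A 1.5-fold rule gave 4 lower of 27 (Smad1, Bmp2, Bmp7 and Inhba), beside 8.09% of all measured genes. A pseudocount of 0.1 with at least 10 reads, chosen after seeing the data, gave 5 higher and 1 lower. For the other pathway genes, 2 higher and 2 lower became 12 and 1 of 43 under library totals. Totals without crystallins gave 2 and 1, a pseudocount of 0.1 gave 3 and 4, and a 1.5-fold rule gave 6 and 4. A pseudocount of 0.1 with 10 reads gave 8 and 5 of 59. Over all genes so tested, 20.3% were higher and 0.664% lower under library totals. The shares were 10.1% and 8.09% with the 1.5-fold rule, and 14.0% and 4.53% with a pseudocount of 0.1 and 10 reads. No gene past the 2-fold size rule under the deposited scaling changed sign. Of the 4 members past the 1.5-fold rule, Bmp7 and Inhba changed sign under library totals. Among the 36 listed members 18 changed sign under library totals and 7 under totals without crystallins, none of them past the size rule. Shares by reads in place of FPKM moved beyond their counting interval in 46 of 64 cases, since gene lengths differ. No paired analysis was possible because each genotype has 1 library. Depth limits Nog (3 reads in all) and Grem1 most.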
